A study of Mus musculus with 8 samples.

Results

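The genes described are the nuclear genes for subunits of the 5 oxidative phosphorylation complexes in 4T1 cells, a line from a mouse mammary tumour that spreads readily and stands in for metastatic breast cancer. They were taken by symbol: protein-coding genes beginning Ndufa, Ndufb, Ndufc, Ndufs or Ndufv without the Ndufaf assembly factors, Sdha to Sdhd, and genes beginning Uqcr, Cox4 to Cox8 or Atp5. Of 24454 genes listed, 85 were members: 36 of complex I, 4 of complex II, 8 of complex III, 18 of complex IV and 17 of complex V, with Ndufa4 and Ndufa4l2 given apart because Ndufa4 is now counted with complex IV. Another 3 symbols that the rule would take, Ndufb1, Ndufb4b and Ndufb4c, were not analysed here.

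Complex I takes electrons from NADH and complex II from succinate, both pass them through ubiquinone to complex III, cytochrome c carries them to complex IV, and the proton gradient built on the way drives ATP synthesis by complex V. Each complex has a catalytic core, whose subunits bind the substrates or carry flavin, iron-sulphur clusters or haem, and further subunits that surround and stabilise it; complexes I, III, IV and V also contain subunits made inside the mitochondrion, which are not used here. Several complex IV subunits exist as a widely expressed form and a form known from muscle, lung or testis.

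RNA was sequenced from 3 shERK5, 2 shMEK5 and 3 shCTRL libraries. All 4T1 cells had been infected with a lentivirus that carried a short hairpin RNA and selected with puromycin; the hairpin targeted Mapk7 (ERK5) in shERK5 and Map2k5 (MEK5, the kinase that activates ERK5) in shMEK5, and had no target in shCTRL. There was 1 hairpin per target, so an effect of the target and an effect of that hairpin cannot be told apart, and the labels do not say whether replicates were separate cultures, so p-values reflect only how these libraries vary, which can be technical variation. The series asks how this kinase pair acts on the epithelial-mesenchymal transition and metastasis of breast cancer cells; the question here is how the transcripts of the respiratory chain stood under each hairpin.

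Values are CPM, a gene's reads for every 1000000 that were assigned to any gene, from 41397315 to 53714288 reads per library. Mapk7 was at 24.4% of its shCTRL mean in shERK5 and Map2k5 at 39.2% in shMEK5, with no overlap of the libraries in either case. All 8 epithelial markers passed the filter on low values, and their summed level was 1666 to 1705 CPM in shERK5, 1294 to 1356 CPM in shMEK5 and 1712 to 1892 CPM in shCTRL. The sum hides opposite changes: 5 rose and 2 fell in shERK5 against shCTRL, and 4 rose and 2 fell in shMEK5, the falling genes being the abundant keratin genes Krt8 (-0.52 (SE 0.05) in shERK5, -0.53 (SE 0.05) in shMEK5) and Krt18 (-0.52 (SE 0.06) and -0.60 (SE 0.06)), while Cdh1, which encodes E-cadherin, rose (1.56 (SE 0.06) and 0.56 (SE 0.07)). None of 6 leukocyte, 4 endothelial or 4 muscle markers passed it, with Cd3e, Adgre1 and Kdr at 0 reads in every library. Of 5 fibroblast markers 1 (Pdgfra) passed, Dcn and Lum had 0 reads, and their sum was 22.8 to 28.2 CPM in shERK5, 34.2 to 35.8 CPM in shMEK5 and 31.6 to 47.2 CPM in shCTRL; the part of these shifts in the results below was not tested. In bulk RNA a change in the number of cells that express a gene and a change of RNA per cell cannot be told apart.

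The start of each gene was looked at first, since transcription factors that act on many respiratory genes at once (NRF1, GABP and YY1) are known to bind there. Of the 85 members, 69 had a 300-base window in the RefSeq promoter table of build GRCm38.p6, which runs from 250 bases before the start to 50 after it. The NRF1 core, GCGCA and GCGC with any 1 base between them, was found, on either strand, in 16 of these windows (23.19%), against 4.784% of all 27025 windows. The GABP/ETS core CCGGAAG was also found in 16 (23.19%), against 9.121% of all, and the YY1 core AANATGGCG in 8 (11.59%), against 2.512%. In all, 35 of 69 windows held at least 1 of these cores, and in 0 of them did matches of different cores overlap.

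Shown are the 170 bases before the start of the 3 genes that rose most in shERK5 against shCTRL and of 3 of those that fell most, so that the 2 directions can be compared base by base. They are written in the direction of the gene, with matches of any core in capitals; all 6 genes lie on the minus strand. Each printed stretch is in the table and lies before the annotated gene. The falling genes printed are not the 3 most changed: Atp5a1 (-0.59) and Ndufs7 (-0.54) are not shown. Both fell more in shERK5 against shCTRL than Cox6a1 (-0.37) and Ndufa8 (-0.29), which are shown. The rising genes are Ndufs5 (chr4:123718187-123718356), Ndufb8 (chr19:44555443-44555612) and Ndufs6 (chr13:73328483-73328652).
Ndufs5: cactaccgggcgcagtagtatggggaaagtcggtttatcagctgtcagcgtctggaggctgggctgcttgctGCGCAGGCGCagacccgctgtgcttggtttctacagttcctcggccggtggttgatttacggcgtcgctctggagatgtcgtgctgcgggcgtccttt
Ndufb8: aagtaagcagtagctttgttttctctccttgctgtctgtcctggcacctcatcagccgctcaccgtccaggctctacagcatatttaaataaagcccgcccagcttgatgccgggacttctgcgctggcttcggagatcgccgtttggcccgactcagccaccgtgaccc
Ndufs6: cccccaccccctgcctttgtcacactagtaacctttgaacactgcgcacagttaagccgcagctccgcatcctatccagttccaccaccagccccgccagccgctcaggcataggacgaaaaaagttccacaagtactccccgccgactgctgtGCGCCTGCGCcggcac
The falling genes are Ndufa4 (chr6:11907451-11907620), Cox6a1 (chr5:115348959-115349128) and Ndufa8 (chr2:36049339-36049508).
Ndufa4: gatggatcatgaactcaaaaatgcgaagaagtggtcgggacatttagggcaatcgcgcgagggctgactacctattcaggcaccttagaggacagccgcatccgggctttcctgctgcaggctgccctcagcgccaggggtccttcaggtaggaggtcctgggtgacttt
Cox6a1: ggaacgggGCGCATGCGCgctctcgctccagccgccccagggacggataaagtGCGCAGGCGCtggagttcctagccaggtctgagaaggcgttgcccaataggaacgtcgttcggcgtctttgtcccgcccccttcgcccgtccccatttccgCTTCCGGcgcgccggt
Ndufa8: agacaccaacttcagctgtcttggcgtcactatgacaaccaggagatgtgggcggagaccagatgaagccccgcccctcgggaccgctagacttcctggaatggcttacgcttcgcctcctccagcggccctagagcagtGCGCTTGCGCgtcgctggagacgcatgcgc
Each direction holds genes with and without a match. Ndufs5, Ndufs6 and Ndufa8 had 1 NRF1 core each, Cox6a1 had 2 NRF1 cores and 1 GABP/ETS core, and Ndufb8 and Ndufa4 had 0 in these bases. Of the members with a window, the NRF1 core was in 6 of 33 that rose in shERK5 against shCTRL, 3 of 10 that fell and 7 of 22 that did not pass the test. The GABP/ETS core was in 4 of 33, 4 of 10 and 8 of 22, and the YY1 core in 5 of 33, 1 of 10 and 2 of 22. A match describes these letters and does not show binding.

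The subunit genes took 1.36% of all gene-assigned reads in shERK5, 1.36% in shMEK5 and 1.27% in shCTRL. Complex V held the largest sum of any complex, 5618, 5943 and 5709 CPM in shERK5, 6095 and 6447 CPM in shMEK5, and 5537, 5701 and 5469 CPM in shCTRL. Without Atp5a1 and Atp5b its mean sum was 1967 CPM in shERK5, 1920.5 CPM in shMEK5 and 1776 CPM in shCTRL, below the sums of complex I. Complex I, with 36 genes, summed to 3769, 3927 and 3895 CPM in shERK5, 3459 and 3675 CPM in shMEK5, and 3225, 3379 and 3217 CPM in shCTRL. All shERK5 sums of complex I lay above all shMEK5 sums, and these above all shCTRL sums. Complex IV summed to 1868, 1912 and 1891 CPM in shERK5, 1714 and 1843 CPM in shMEK5, and 1834, 1919 and 1799 CPM in shCTRL, and here the groups overlapped. Complexes III and II were lower, at 1137, 1171 and 1149.9 CPM in shERK5, 1099 and 1101 CPM in shMEK5, and 1111, 1132 and 1069 CPM in shCTRL for complex III and 749.7, 859 and 801 CPM in shERK5, 707 and 762 CPM in shMEK5, and 771, 723 and 708 CPM in shCTRL for complex II.

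Compared per length of the transcript, the highest mean level in shCTRL was that of Atp5b, the catalytic beta subunit of ATP synthase, at 1364 CPM per kb. It was followed by Ndufb9, an accessory complex I subunit, at 839.6, and by the complex IV genes Cox4i1 and Cox8a at 579 and 542 CPM per kb. The median over the 78 tested members was 100.5 CPM per kb, with complex medians between 74.2 for complex I and 166 for complex IV. The lowest tested members were Ndufab1, the mitochondrial acyl carrier protein, at 1.27, Atp5g2 at 1.76 and Cox6a2, the heart and skeletal muscle form of a complex IV subunit, at 8.86 CPM per kb. The sources used here do not say how reads common to several genes were assigned. Of the 85 members, 48 shared at least 1 50-base window of their transcript with another gene; Atp5g2 shared 87.4% of its windows, Atp5l 84.8% and Atp5g1 66.0%, so their levels are uncertain. The level of Ndufab1 is uncertain as well: it is low for a gene that is used in most cells, and the gene shares 12.3% of its windows. Its rank also depends on the length used, a transcript of 3479 bases. In CPM its shCTRL mean was 4.42, against 1.29 for Atp5g2. The 10 tested members that shared at least 40% of their windows had a median of 79.5 CPM per kb in shCTRL, against 106 for those that shared none.

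**Figure D1:**
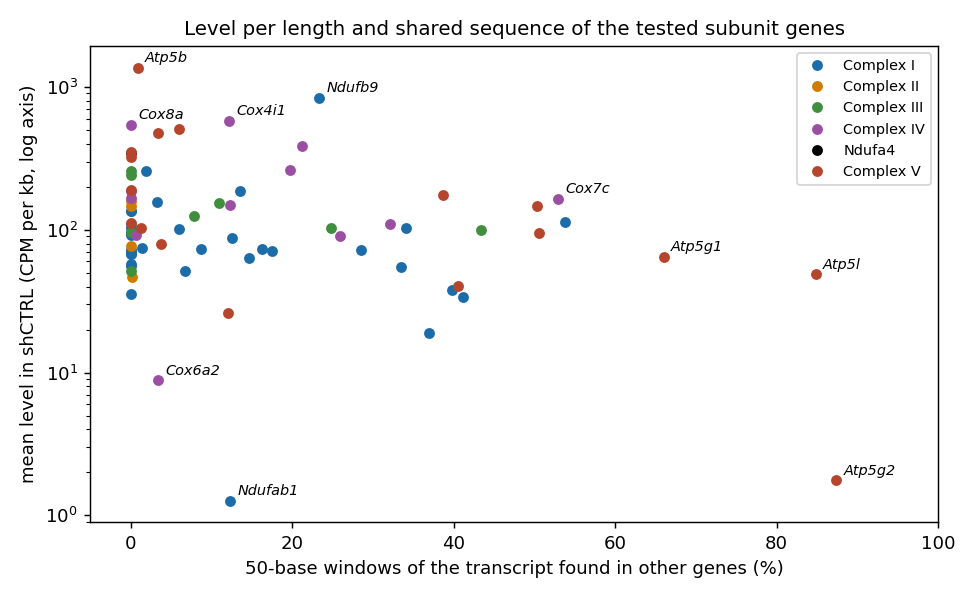
Mean level of 77 of the 78 tested subunit genes in shCTRL, in CPM per kb of transcript (log axis), against the percentage of 50-base windows of the transcript that also occur in another gene. Each point is 1 gene, coloured by complex: Atp5b is highest and Ndufab1 and Atp5g2 are lowest, and Atp5g2, Atp5l and Atp5g1 share more of their sequence than the other genes drawn.

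Apart from Cox6a2, the alternative forms of complex IV subunits named here had few or no reads. Of the 7 members that did not reach 1 CPM in at least 2 libraries, Cox6b2, Cox7b2, Cox8b and Cox8c had 0 reads throughout, a count that allows at most 0.0725 CPM in the shallowest library. Cox4i2 (the lung form), Cox7a1 (a heart and muscle form) and Ndufa4l2 (a hypoxia-induced relative of Ndufa4) stayed at or below 0.314 CPM in each library. These 7 members were not tested, and the other 78 were. Exons of 31 members overlap those of another gene, 28 of them on the opposite strand, and since the sources used here do not say whether counting used strand, reads of such a pair cannot be told apart.

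More subunit genes rose than fell in shERK5 against shCTRL. By limma on log2(CPM + 1), 39 of the 78 tested members rose and 12 fell at an adjusted p under 0.05, while of all 11623 tested genes 63.3% passed, 32% upwards and 31.3% downwards. The members' median log2 fold change was 0.13, that of all tested genes 0.00. In 43 of the 78 tested members every shERK5 library lay above every shCTRL library, a pattern found in 34.8% of all tested genes. In 12 members every one lay below, a pattern found in 33.1% of all. The changes were small: on the log2(CPM + 1) scale Cox6a2 was at -0.999, and the greatest change of any other tested member was -0.68, that of Ndufa4. Leaving out 1 library gave 32 to 41 members higher and 9 to 12 lower.

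In shMEK5 against shCTRL, 22 members rose and 10 fell, and 48.7% of all tested genes passed, 23.1% upwards and 25.6% downwards. The median was 0.05 for the members and -0.02 for all tested genes. Every shMEK5 library lay above every shCTRL library in 32 of the 78 tested members, a pattern found in 32.2% of all tested genes. In 17 members all lay below, a pattern found in 36.5% of all. With only 2 shMEK5 libraries these counts rest on single libraries: without shMEK5 replicate 2, 12 rose and 6 fell, without shMEK5 replicate 1, 17 rose and 5 fell, and without shCTRL replicate 2, 26 rose and 6 fell. Both comparisons use the same shCTRL libraries. Of the 30 tested members that share no window with another gene, 14 rose and 6 fell in shERK5 and 4 rose and 4 fell in shMEK5, with medians of 0.13 and -0.01; of the 48 that share some, 25 rose and 6 fell in shERK5 and 18 rose and 6 fell in shMEK5, with medians of 0.14 and 0.10.

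**Figure D2:**
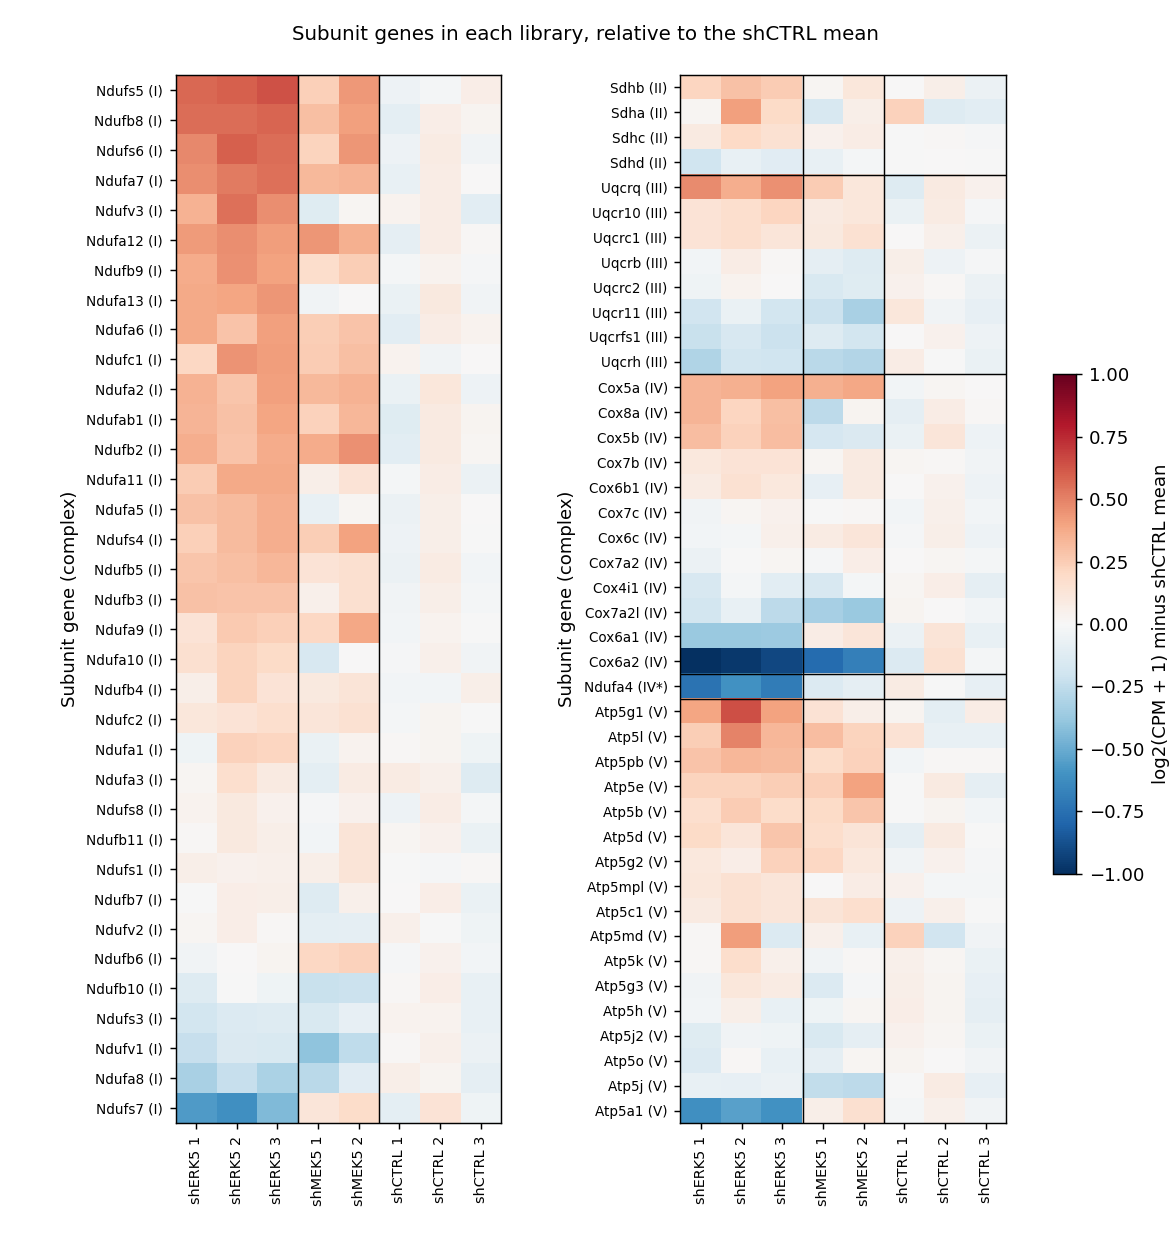
Level of 77 of the 78 tested subunit genes in each library, as log2(CPM + 1) minus the mean of the 3 shCTRL libraries, with complex I on the left and the other complexes on the right (Ndufa4, marked with an asterisk, is shown apart). Red is above and blue below the shCTRL mean, and colours end at -1 and 1, a limit that Cox6a2 passes in shERK5; genes of a complex are ordered by their change in shERK5.

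**Figure D3:**
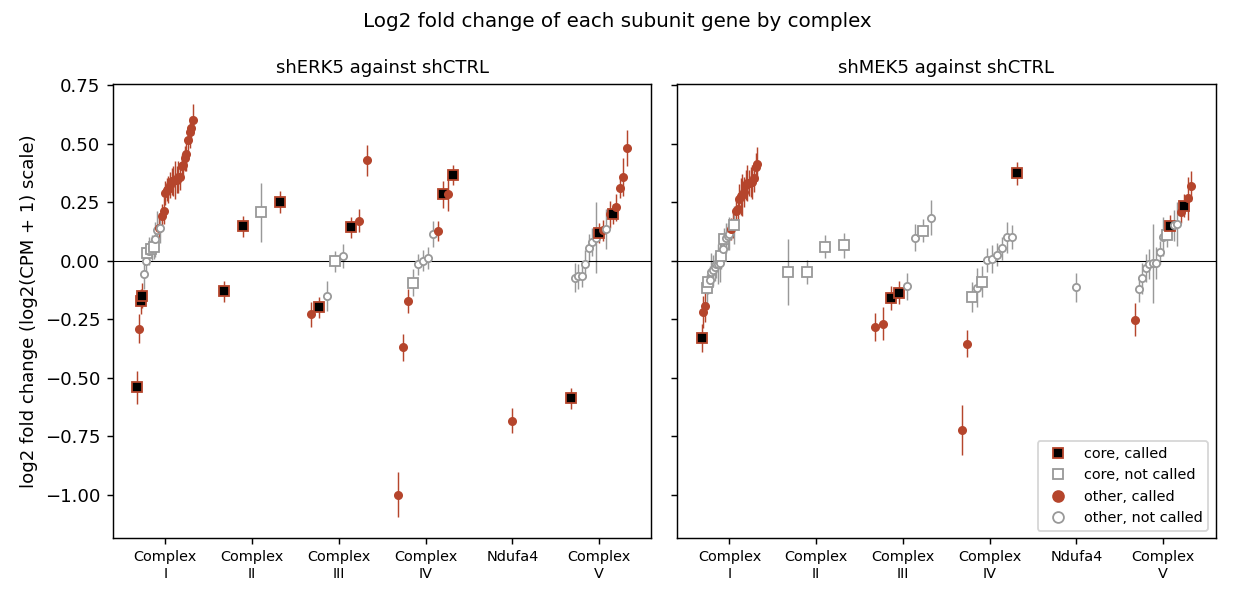
Log2 fold change of the same 77 subunit genes against shCTRL (shERK5 left, shMEK5 right), by complex, with bars of 1 SE. Squares are 19 genes of the set chosen as core, which also holds Uqcrc1, Uqcrc2, Cox4i1, Cox5a and Cox5b, and circles are the others. Symbols are filled where the limma adjusted p is under 0.05. In complex I most filled circles lie above 0 on the left.

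Most accessory subunit genes of complex I rose in shERK5. Of these 29 genes 21 rose (72.4%) and 1 fell (3.45%) in shERK5 against shCTRL, where 32% and 31.3% of all tested genes did. In shMEK5 16 rose (55.2%) and 2 fell (6.90%), against 23.1% and 25.6% of all. The medians were 0.32 and 0.15. The accessory count in shMEK5 was 8 without shMEK5 replicate 2. Of the core subunits described here, Ndufs7, Ndufv1 and Ndufs3 fell in shERK5 and Ndufv1 fell in shMEK5.

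The core gene of complex I that fell most was Ndufs7 (chr10:80249105-80256794), which carries the last iron-sulphur cluster before ubiquinone. It stood at 35.7, 34.5 and 39.2 CPM in shERK5, 58.3 and 60.6 CPM in shMEK5, and 49.8, 58.9 and 51.8 CPM in shCTRL. All shERK5 libraries lay below all others, at -0.54 (SE 0.07, limma adjusted p = 8.67e-05) in shERK5 against shCTRL. In shMEK5 the libraries overlapped with shCTRL, at 0.15 (SE 0.08, limma adjusted p = 0.137); without shCTRL replicate 2 the value was 0.22 and passed the test. Ndufs8, which carries the neighbouring clusters in the same arm, did not pass in either comparison: it stood at 73.4, 77.0 and 73.9 CPM in shERK5, 71.3 and 74.2 CPM in shMEK5, and 69.2, 75.5 and 70.8 CPM in shCTRL. The ratio of Ndufs7 to Ndufs8 was lower in shERK5 than in the other groups, at 0.485, 0.448 and 0.530 in shERK5, 0.817 and 0.817 in shMEK5, and 0.719, 0.781 and 0.732 in shCTRL.

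Ndufv1, which binds NADH and the flavin, was lower under both hairpins. It stood at 134, 142 and 142 CPM in shERK5, 119 and 132 CPM in shMEK5, and 158, 163 and 151 CPM in shCTRL. It fell, at -0.17 (SE 0.05, limma adjusted p = 0.0157) in shERK5 and -0.33 (SE 0.06, limma adjusted p = 0.00125) in shMEK5, and the call in shERK5 was lost without shCTRL replicate 2 (-0.15). Its flavoprotein partner Ndufv2 stood at 126, 130.5 and 125 CPM in shERK5, 117 and 117 CPM in shMEK5, and 129, 124 and 121 CPM in shCTRL, with 0.03 in shERK5 and -0.09 in shMEK5, neither past the test. Ndufs3, which links the arms of the core, stood at 34.9, 36.0 and 36.2 CPM in shERK5, 35.6 and 37.4 CPM in shMEK5, and 40.8, 40.7 and 37.7 CPM in shCTRL. It fell in shERK5, at -0.15 (SE 0.05, limma adjusted p = 0.0311), a call lost without any 1 of shCTRL replicates 1 and 2 and the 3 shERK5 libraries, at -0.13 to -0.16. Ndufs3 shares 39.7% of its windows with other genes and overlaps Kbtbd4 on the opposite strand.

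Ndufs1, the largest of the iron-sulphur subunits, stood at 279.7, 276 and 277 CPM in shERK5, 279 and 294 CPM in shMEK5, and 268, 266 and 271 CPM in shCTRL. Its shERK5 and shMEK5 libraries all lay above the shCTRL libraries, but 0.05 and 0.09 on the log2 scale did not pass the test.

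Among the accessory subunits the greatest rise in shERK5 was that of Ndufs5 (chr4:123712710-123718186), a small cysteine-rich subunit on the outer face of the inner membrane, at 27.0, 27.4 and 28.2 CPM in shERK5, 21.2 and 24.4 CPM in shMEK5, and 17.1, 17.6 and 18.7 CPM in shCTRL. The 3 groups did not overlap, with shERK5 highest and shCTRL lowest. Ndufs5 shares 41.2% of its windows with another gene. On the log2 scale it rose by 0.60 (SE 0.07, limma adjusted p = 2.71e-05) in shERK5 and 0.34 (SE 0.07, limma adjusted p = 0.00391) in shMEK5, where the call was lost without shMEK5 replicate 2 (0.24). Ndufb8 (chr19:44548571-44555442), a membrane-arm subunit often used as a protein marker of assembled complex I, followed the same order of groups, at 186, 186 and 189 CPM in shERK5, 156 and 168 CPM in shMEK5, and 118, 132 and 129 CPM in shCTRL. It rose by 0.57 (SE 0.05, limma adjusted p = 8.42e-06) in shERK5 and 0.35 (SE 0.06, limma adjusted p = 0.000723) in shMEK5. Ndufb8 overlaps the predicted gene Gm20538 on the same strand.

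Ndufs6 (chr13:73319876-73328482), a zinc-binding subunit needed late in assembly of the NADH-binding end, stood at 50.5, 54.8 and 53.4 CPM in shERK5, 42.0 and 49.1 CPM in shMEK5, and 34.6, 38.1 and 35.0 CPM in shCTRL. It rose by 0.55 (SE 0.07, limma adjusted p = 6.03e-05) in shERK5 and 0.33 (SE 0.08, limma adjusted p = 0.00473) in shMEK5, and the call in shMEK5 was lost without shMEK5 replicate 2 (0.22). Its exons overlap those of Mrpl36 on the opposite strand. Ndufa7 (chr17:33824572-33838316), a subunit of the arm that projects into the matrix, stood at 189, 196 and 200.0 CPM in shERK5, 171 and 173 CPM in shMEK5, and 129, 143 and 137 CPM in shCTRL. The 3 groups again did not overlap, and the rise was 0.51 (SE 0.05, limma adjusted p = 1.04e-05) in shERK5 and 0.33 (SE 0.06, limma adjusted p = 0.000687) in shMEK5. None of the libraries of these 4 genes under either hairpin reached down to a shCTRL library.

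**Figure D4:**
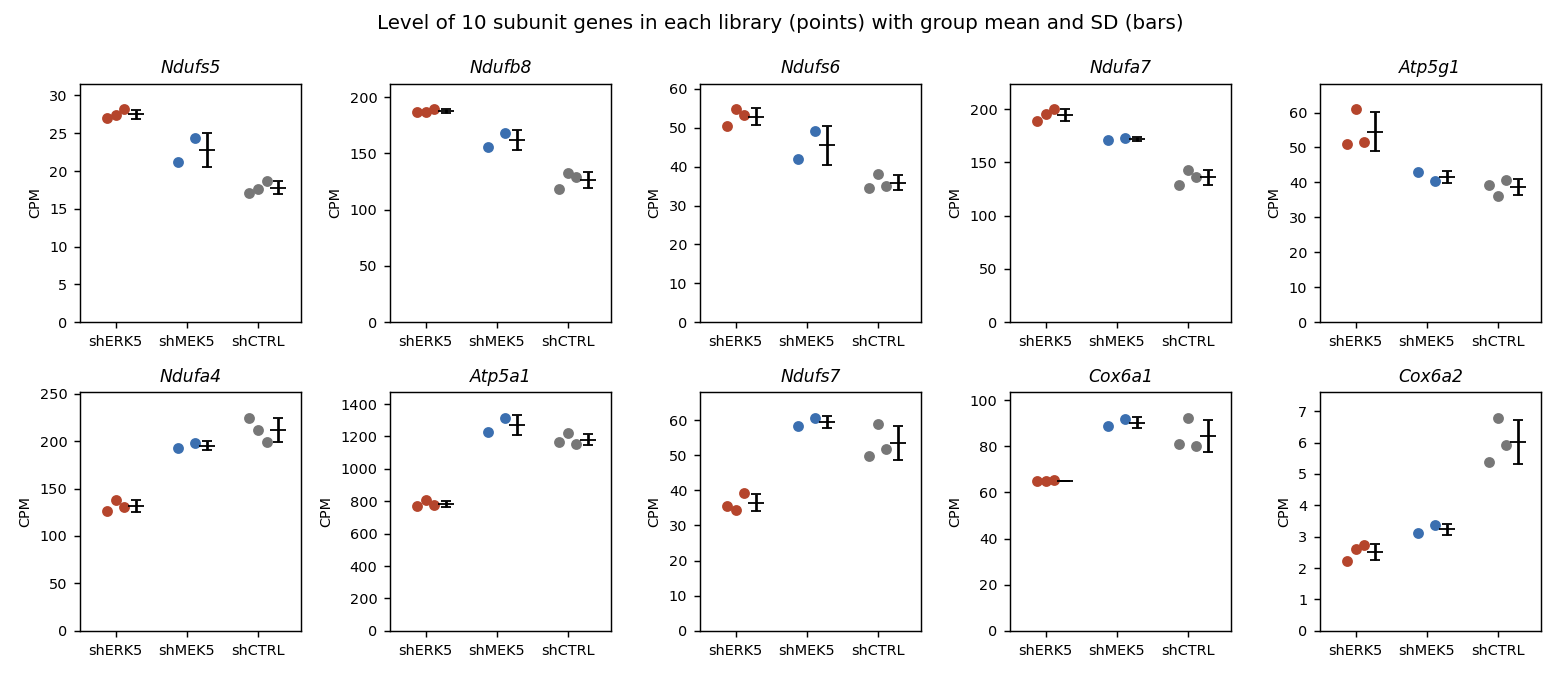
CPM of 10 subunit genes in each library (points, with group mean and SD beside them), with shERK5, shMEK5 and shCTRL from left to right and each axis from 0. The upper row shows 5 genes that rose in shERK5 and the lower row 5 that fell. In the upper row shMEK5 lies between the other groups or overlaps shCTRL. For each gene of the lower row the shERK5 points lie below those of both other groups.

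The 2 genes that rose most in shMEK5 were accessory subunits of the same complex, followed by Cox5a of complex IV (0.37). Ndufb2, a small membrane-arm subunit, stood at 32.3, 30.4 and 32.4 CPM in shERK5, 32.3 and 34.4 CPM in shMEK5, and 23.0, 26.4 and 25.2 CPM in shCTRL, a log2 fold change of 0.41 (SE 0.07, limma adjusted p = 0.00095) in shMEK5 and 0.34 (SE 0.06, limma adjusted p = 0.000972) in shERK5. Ndufa12, a subunit near the junction of the arms, stood at 86.5, 88.8 and 86.1 CPM in shERK5, 87.4 and 82.1 CPM in shMEK5, and 60.2, 67.6 and 64.6 CPM in shCTRL, with 0.40 (SE 0.06, limma adjusted p = 0.000357) in shMEK5 and 0.44 (SE 0.05, limma adjusted p = 5.15e-05) in shERK5. Both hairpins gave overlapping libraries for these 2 genes, all above shCTRL. Ndufb2 overlaps Braf on the opposite strand and shares 33.5% of its windows with other genes, and Ndufa12 shares 53.8%.

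Ndufa8, a cysteine-rich subunit of the intermembrane-space face, was the single accessory subunit that fell in shERK5, at 49.5, 53.1 and 50.1 CPM in shERK5, 51.5 and 57.6 CPM in shMEK5, and 65.1, 63.7 and 58.7 CPM in shCTRL. On the log2 scale it was at -0.29 (SE 0.06, limma adjusted p = 0.00189) in shERK5. The shMEK5 value was -0.19 (SE 0.07, limma adjusted p = 0.0374), a call lost under TMM, RLE, edgeR, DESeq2 and no filter on low values (-0.17 to -0.19) and without any 1 of shCTRL replicates 1 and 2, shMEK5 replicate 1 and shERK5 replicate 3 (-0.11 to -0.19). The remaining 15 accessory genes that rose in shERK5 did so by 0.14 (Ndufc2) to 0.46 (Ndufv3).

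The 4 genes of complex II, succinate dehydrogenase, split in shERK5: 2 rose (50%) and 1 fell (25%), against 32% and 31.3% of all tested genes. Sdhb, the iron-sulphur subunit, stood at 210.4, 222 and 216 CPM in shERK5, 184 and 196 CPM in shMEK5, and 182, 189 and 174 CPM in shCTRL, and rose by 0.25 (SE 0.05, limma adjusted p = 0.00113) in shERK5. Sdhc, a membrane anchor, stood at 158, 171 and 165 CPM in shERK5, 153 and 157 CPM in shMEK5, and 149, 149.8 and 148 CPM in shCTRL, and rose by 0.15 (SE 0.04, limma adjusted p = 0.014), a call lost without shERK5 replicate 2 (0.12). Sdhd, the other anchor, stood at 157, 171 and 166 CPM in shERK5, 171 and 178 CPM in shMEK5, and 180.2, 181 and 179.5 CPM in shCTRL.

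All shERK5 libraries of Sdhd lay below all shCTRL libraries, with -0.13 (SE 0.05, limma adjusted p = 0.0284); the call was lost without any 1 of shCTRL replicates 2 and 3 and shERK5 replicates 1 and 3 (-0.10 to -0.14). The ratio of Sdhd to Sdhb was 0.744, 0.769 and 0.768 in shERK5, 0.928 and 0.905 in shMEK5, and 0.990, 0.958 and 1.03 in shCTRL. Sdha, the flavoprotein that oxidises succinate, varied more between replicates than between groups, at 224, 295 and 254 CPM in shERK5, 199 and 232 CPM in shMEK5, and 261, 203 and 207 CPM in shCTRL, with 0.21 in shERK5, not past the test; without shCTRL replicate 1 the value was 0.32 and passed. In shMEK5 against shCTRL 0 of the 4 genes passed, in limma, edgeR or DESeq2, and 0 had an unadjusted limma p under 0.05.

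In complex III 3 of 8 genes rose (37.5%) and 2 fell (25%) in shERK5, near the 32% and 31.3% of all tested genes. In shMEK5 0 rose and 4 fell (50%), against 23.1% and 25.6% of all. The medians were 0.01 and -0.12. At an unadjusted limma p under 0.05, 2 were higher in shMEK5, and 1 was in edgeR and in DESeq2. The 4 were 2 without shCTRL replicate 2 or without shMEK5 replicate 1, and 1 without shMEK5 replicate 2. Uqcrfs1, the Rieske iron-sulphur protein, stood at 113, 118 and 114 CPM in shERK5, 121 and 116 CPM in shMEK5, and 133, 137 and 128 CPM in shCTRL. It fell, at -0.20 (SE 0.05, limma adjusted p = 0.00317) in shERK5 and -0.16 (SE 0.05, limma adjusted p = 0.0255) in shMEK5, where the call was lost without any 1 of shCTRL replicate 2 and shMEK5 replicates 1 and 2 (-0.13 to -0.19). Uqcrh, the hinge protein at the cytochrome c site, also fell under both hairpins, at 55.3, 60.0 and 59.3 CPM in shERK5, 56.4 and 55.7 CPM in shMEK5, and 71.9, 68.0 and 65.3 CPM in shCTRL, with -0.23 (SE 0.05, limma adjusted p = 0.0035) in shERK5 and -0.28 (SE 0.06, limma adjusted p = 0.00308) in shMEK5.

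The large core proteins of complex III differed from each other. Uqcrc1 stood at 436, 445 and 431 CPM in shERK5, 425 and 441 CPM in shMEK5, and 398, 411 and 380.1 CPM in shCTRL, rising in shERK5 by 0.14 (SE 0.04, limma adjusted p = 0.0167), a call lost without shCTRL replicate 3 (0.11) or shERK5 replicate 2 (0.13). In shMEK5 it was at 0.13 (SE 0.05, limma adjusted p = 0.053), a value that passed under TMM, RLE, CPM over protein-coding genes, edgeR and DESeq2 and without shCTRL replicate 2 (0.13 to 0.15). Uqcrc2 stood at 188, 199 and 194 CPM in shERK5, 174 and 178 CPM in shMEK5, and 199.6, 196 and 186 CPM in shCTRL. It was at -0.002 in shERK5 and fell in shMEK5, at -0.14 (SE 0.05, limma adjusted p = 0.0439), a call lost under 6 of the settings that keep every library (-0.12 to -0.14) and without any 1 of shCTRL replicates 1 and 2, shMEK5 replicates 1 and 2 and shERK5 replicates 2 and 3 (-0.12 to -0.15).

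Uqcr11, a small subunit, stood at 59.8, 65.3 and 60.2 CPM in shERK5, 58.9 and 54.7 CPM in shMEK5, and 74.5, 66.9 and 64.8 CPM in shCTRL, with -0.27 (SE 0.07, limma adjusted p = 0.0102) in shMEK5, lost without shMEK5 replicate 2 (-0.22), and -0.15 in shERK5, which did not pass but did with RLE size factors (-0.16) and without shCTRL replicate 3 or shERK5 replicate 2 (-0.19 each). The greatest rise of the complex was that of Uqcrq, a small subunit next to cytochrome b, at 109, 101 and 108 CPM in shERK5, 93.7 and 84.9 CPM in shMEK5, and 71.5, 83.8 and 80.7 CPM in shCTRL, with 0.43 (SE 0.07, limma adjusted p = 0.000271) in shERK5.

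Complex IV showed 4 of 12 tested genes higher and 3 lower in shERK5, and 1 higher and 2 lower in shMEK5. These shares are 33.3% and 25% in shERK5, against 32% and 31.3% of all tested genes, and 8.33% and 16.7% in shMEK5, against 23.1% and 25.6%. Cox4i1, the regulatory subunit with an ATP-binding site, stood at 386, 426 and 400.0 CPM in shERK5, 385 and 426 CPM in shMEK5, and 437, 450.3 and 406 CPM in shCTRL, with overlapping groups and -0.09 in shERK5 and -0.09 in shMEK5, neither past the test. Cox5a, its matrix-facing neighbour, stood at 89.6, 90.7 and 94.0 CPM in shERK5, 90.9 and 92.9 CPM in shMEK5, and 69.5, 71.8 and 70.9 CPM in shCTRL. Every library of both hairpins lay above shCTRL, at 0.37 (SE 0.04, limma adjusted p = 4.24e-05) in shERK5 and 0.37 (SE 0.05, limma adjusted p = 0.000141) in shMEK5, so that the ratio of Cox5a to Cox4i1 was 0.232, 0.213 and 0.235 in shERK5, 0.236 and 0.218 in shMEK5, and 0.159, 0.159 and 0.175 in shCTRL. Cox5a shares 32.0% of its windows with other genes and overlaps Gm26631 on the opposite strand.

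Cox5b, the zinc-binding matrix subunit, stood at 97.1, 92.3 and 97.5 CPM in shERK5, 69.7 and 70.8 CPM in shMEK5, and 74.6, 85.4 and 75.5 CPM in shCTRL. It rose in shERK5 by 0.28 (SE 0.06, limma adjusted p = 0.00151) and was at -0.15 (SE 0.06, limma adjusted p = 0.0687) in shMEK5, a value that passed the test without shCTRL replicate 1 (-0.19). Cox8a, the widely expressed form of subunit VIII, stood at 377, 346 and 368 CPM in shERK5, 249 and 304 CPM in shMEK5, and 281, 313 and 301 CPM in shCTRL, rising by 0.29 (SE 0.07, limma adjusted p = 0.00658) in shERK5. In shMEK5 its value was -0.12 and did not pass, but did without shMEK5 replicate 2 (-0.26). Cox7b stood at 99.8, 102 and 102 CPM in shERK5, 93.6 and 98.7 CPM in shMEK5, and 94.1, 93.2 and 90.5 CPM in shCTRL, and its rise of 0.13 (SE 0.04) in shERK5 was lost without any 1 of shCTRL replicate 3 and shERK5 replicates 2 and 3 (0.11 to 0.12).

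Both forms of subunit VIa were lower in shERK5. Cox6a1 (chr5:115345652-115348958), the widely expressed form, stood at 64.8, 64.9 and 65.2 CPM in shERK5, 88.7 and 91.8 CPM in shMEK5, and 80.9, 92.3 and 80.0 CPM in shCTRL. The shERK5 libraries differed among themselves by less than the other groups did and lay below all of them, at -0.37 (SE 0.06, limma adjusted p = 0.000291). In shMEK5 the value was 0.10, not past the test but past it without shCTRL replicate 2 (0.16). Cox6a2, the heart and muscle form, stood at 2.22, 2.59 and 2.72 CPM in shERK5, 3.12 and 3.37 CPM in shMEK5, and 5.38, 6.78 and 5.91 CPM in shCTRL, and fell, at -0.999 (SE 0.10, limma adjusted p = 1.02e-05) in shERK5 and -0.72 (SE 0.11, limma adjusted p = 0.000339) in shMEK5. These levels are 378 reads over the 3 shERK5 libraries, and exons of Cox6a2 overlap those of Itgad on the opposite strand. The ratio of Cox6a2 to Cox6a1 was 0.0342, 0.0399 and 0.0418 in shERK5, 0.0351 and 0.0366 in shMEK5, and 0.0665, 0.0735 and 0.0739 in shCTRL. The 4 muscle markers summed to 0.695 to 0.900 CPM in shERK5, 0.379 to 0.411 CPM in shMEK5 and 0.175 to 0.678 CPM in shCTRL; their part in the Cox6a2 change was not tested.

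Cox7a2l, a relative of Cox7a2 that joins complexes III and IV into supercomplexes, fell under both hairpins and further in shMEK5. It stood at 246, 266 and 233 CPM in shERK5, 222 and 216 CPM in shMEK5, and 284, 280.0 and 275 CPM in shCTRL. The changes were -0.35 (SE 0.06, limma adjusted p = 0.000678) in shMEK5 and -0.17 (SE 0.05, limma adjusted p = 0.0143) in shERK5, where the call was lost without shERK5 replicate 3 (-0.13). Cox7a2 itself stood at 106, 110.0 and 112 CPM in shERK5, 109 and 115 CPM in shMEK5, and 111, 111 and 109 CPM in shCTRL, with overlapping groups. Cox6b1 stood at 122, 128 and 124 CPM in shERK5, 109 and 123 CPM in shMEK5, and 116, 119 and 111 CPM in shCTRL, and did not pass in either comparison, at 0.11 in shERK5 and 0.01 in shMEK5; with the replicate numbers as a block it passed in shERK5 (0.11).

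Ndufa4 (chr6:11900372-11907450), a peripheral complex IV subunit first described in complex I, showed the greatest fall of any tested member with a mean of at least 5 CPM in shERK5. It stood at 126, 138 and 130.1 CPM in shERK5, 192 and 198 CPM in shMEK5, and 224, 211 and 199 CPM in shCTRL. Every shERK5 library lay below every other library, and the shMEK5 libraries lay below the shCTRL libraries. On the log2 scale it was at -0.68 (SE 0.06, limma adjusted p = 3.29e-06) in shERK5, and -0.11 (SE 0.06, limma adjusted p = 0.149) in shMEK5, which did not pass. Ndufa4 shares no 50-base window with another gene. Relative to Cox4i1 its level was 0.327, 0.325 and 0.325 in shERK5, 0.4997 and 0.466 in shMEK5, and 0.513, 0.469 and 0.491 in shCTRL.

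In complex V 8 of 17 genes rose (47.1%) and 1 fell (5.88%) in shERK5, against 32% and 31.3% of all tested genes. In shMEK5 5 rose (29.4%) and 1 fell (5.88%), against 23.1% and 25.6% of all. The 8 were 5 without shERK5 replicate 3, and the 5 were 3 without any 1 of shCTRL replicate 3 and shMEK5 replicates 1 and 2. The gene that fell in shERK5 was Atp5a1 (chr18:77773768-77782869), the alpha subunit, which alternates with the beta subunit in the catalytic head. It stood at 770.1, 807 and 776 CPM in shERK5, 1229 and 1314 CPM in shMEK5, and 1166, 1219 and 1153 CPM in shCTRL. All shERK5 libraries lay below all others, at -0.59 (SE 0.04, limma adjusted p = 2.16e-06). In shMEK5 it lay above shCTRL, at 0.11 (SE 0.05, limma adjusted p = 0.0947), a value that passed under TMM and edgeR (0.13 each).

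The partners of Atp5a1 in the head moved the other way in shERK5. Atp5b, the beta subunit, stood at 2930.5, 3119.6 and 2963 CPM in shERK5, 2983 and 3175 CPM in shMEK5, and 2604, 2668 and 2571 CPM in shCTRL, and rose by 0.20 (SE 0.04, limma adjusted p = 0.0021) in shERK5 and 0.24 (SE 0.05, limma adjusted p = 0.0024) in shMEK5. Atp5c1, the central stalk, stood at 629.7, 659 and 643 CPM in shERK5, 647 and 667 CPM in shMEK5, and 574, 614 and 592 CPM in shCTRL, with 0.12 (SE 0.04, limma adjusted p = 0.0312) in shERK5 and 0.15 (SE 0.05, limma adjusted p = 0.0258) in shMEK5. These small rises of Atp5c1 were lost without any 1 of shCTRL replicates 1 and 3 and shERK5 replicates 2 and 3 in shERK5 (0.10 to 0.12), and without any 1 of shCTRL replicates 1 and 3 and shMEK5 replicates 1 and 2 in shMEK5 (0.12 to 0.17). The ratio of Atp5a1 to Atp5b was 0.263, 0.259 and 0.262 in shERK5, 0.412 and 0.414 in shMEK5, and 0.448, 0.457 and 0.448 in shCTRL, and the ratio of Atp5c1 to Atp5b was 0.215, 0.211 and 0.217 in shERK5, 0.217 and 0.210 in shMEK5, and 0.220, 0.230 and 0.230 in shCTRL. Atp5a1 shares 3.30% of its windows with 1 other gene, and its exons overlap those of Haus1 on the opposite strand.

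**Figure D5:**
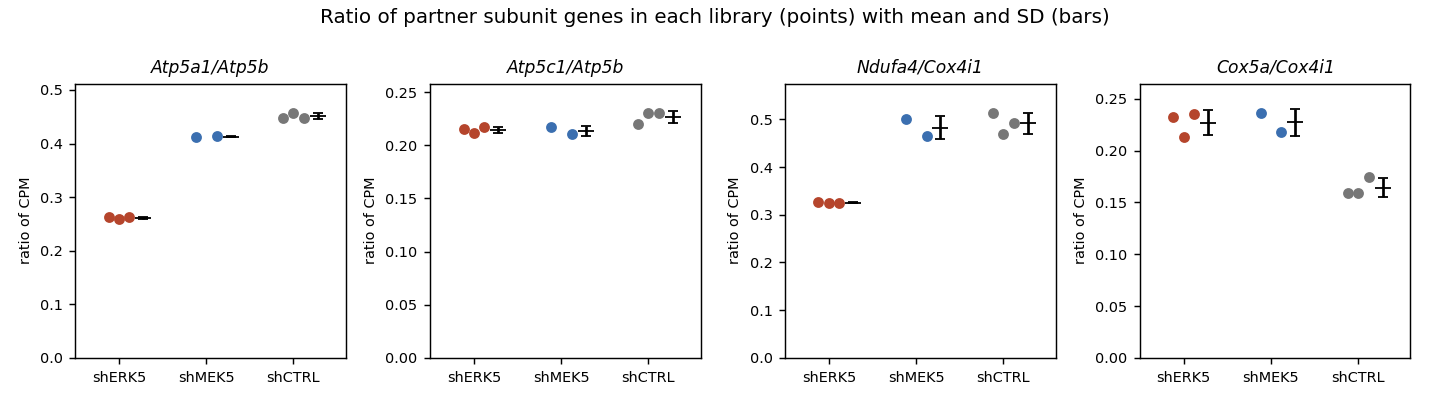
Ratio of CPM between partner subunit genes in each library (points, with group mean and SD), with shERK5, shMEK5 and shCTRL from left to right. Atp5a1 relative to Atp5b and Ndufa4 relative to Cox4i1 are lower in all 3 shERK5 libraries than in the others, Cox5a relative to Cox4i1 is higher under both hairpins than in shCTRL, and Atp5c1 relative to Atp5b lies between 0.210 and 0.230 throughout.

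The c ring of ATP synthase is encoded by 3 genes that make the same mature protein. Atp5g1 stood at 51.1, 61.0 and 51.5 CPM in shERK5, 42.9 and 40.3 CPM in shMEK5, and 39.4, 36.0 and 40.7 CPM in shCTRL, and rose by 0.48 (SE 0.08, limma adjusted p = 0.000292) in shERK5, with 0.10 in shMEK5, which did not pass. Atp5g3 stood at 132, 147 and 144 CPM in shERK5, 123 and 135 CPM in shMEK5, and 141, 139 and 128 CPM in shCTRL, with overlapping groups. Atp5g2, at 1.45, 1.39 and 1.69 CPM in shERK5, 1.64 and 1.45 CPM in shMEK5, and 1.23, 1.36 and 1.27 CPM in shCTRL, did not pass in either comparison, although its shERK5 and shMEK5 libraries all lay above shCTRL. Atp5j, a subunit of the peripheral stalk, stood at 18.3, 18.1 and 18.4 CPM in shERK5, 16.1 and 15.9 CPM in shMEK5, and 19.3, 20.4 and 18.2 CPM in shCTRL, and fell in shMEK5, at -0.25 (SE 0.07, limma adjusted p = 0.0116). The call was lost without shMEK5 replicate 1 (-0.26) or 2 (-0.24). Exons of Atp5j overlap those of Gabpa on the opposite strand, and Gabpa changed by -0.09 (SE 0.08) in shMEK5, which did not pass.

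Set directly against shMEK5, 19 members were higher and 5 lower in shERK5, with a median of 0.08; of all tested genes 39.4% passed, 22% higher and 17.4% lower, with a median of 0.02. Every shERK5 library lay above every shMEK5 library in 32 of the 78 tested members, a pattern found in 34.1% of all tested genes. In 7 members all lay below, a pattern found in 26.9% of all. With edgeR on the recovered reads 14 members were higher and 5 lower, of 2264 and 2188 genes. The count of 19 was 7 without shMEK5 replicate 1, 12 without shERK5 replicate 2 and 10 without shERK5 replicate 3. The 5 lower genes were Atp5a1 at -0.70 (SE 0.05, limma adjusted p = 4.28e-06), Ndufs7 at -0.69 (SE 0.08, limma adjusted p = 8.88e-05), Ndufa4 at -0.57 (SE 0.06, limma adjusted p = 6.26e-05), Cox6a1 at -0.47 (SE 0.06, limma adjusted p = 0.000294) and Ndufb6, a membrane-arm subunit of complex I, at -0.22 (SE 0.05, limma adjusted p = 0.00537). Ndufb6 stood at 66.2, 67.7 and 69.0 CPM in shERK5, 78.4 and 79.5 CPM in shMEK5, and 67.2, 69.6 and 66.2 CPM in shCTRL, so that it was higher in shMEK5 (0.22 against shCTRL) and at -0.00026 in shERK5. It shares 34.1% of its windows with another gene and overlaps Smim27 on the opposite strand.

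The members that were higher in shERK5 than in shMEK5 by the greatest amount were Ndufv3, Cox5b, Ndufa13, Cox8a and Atp5g1. Ndufv3, a small subunit at the NADH-binding end, stood at 59.5, 68.9 and 64.8 CPM in shERK5, 42.8 and 47.4 CPM in shMEK5, and 47.7, 49.2 and 43.2 CPM in shCTRL, with 0.50 (SE 0.08, limma adjusted p = 0.000674). The shMEK5 and shCTRL libraries of Ndufv3 overlapped, and its ratio to Ndufv1 was 0.443, 0.484 and 0.457 in shERK5, 0.361 and 0.359 in shMEK5, and 0.301, 0.302 and 0.285 in shCTRL. Ndufa13, a membrane-arm subunit also known as a cell death regulator, stood at 118, 119 and 123 CPM in shERK5, 88.2 and 90.5 CPM in shMEK5, and 86.3, 96.6 and 88.2 CPM in shCTRL, with 0.42 (SE 0.06, limma adjusted p = 0.00027). Ndufa13 shares 28.5% of its windows with other genes and overlaps Tssk6 on the opposite strand. Cox5b had 0.44 (SE 0.06, limma adjusted p = 0.000421), Cox8a 0.40 (SE 0.08, limma adjusted p = 0.00349) and Atp5g1 0.38 (SE 0.08, limma adjusted p = 0.00513).

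Several other differences between the hairpins were close to the threshold. Those of Ndufs5 (0.27) and Ndufb8 (0.21) were lost without shMEK5 replicate 1 (0.17 and 0.16) or without shERK5 replicate 3 (0.25 and 0.20). That of Ndufa7 (0.18) was lost without any 1 of shMEK5 replicates 1 and 2 and shERK5 replicates 2 and 3 (0.16 to 0.19), and that of Sdhb (0.19) without any 1 of shMEK5 replicate 1 and shERK5 replicates 2 and 3 (0.14 to 0.19). Those of Ndufs6 (0.22) and Cox7a2l (0.18) were lost under TMM, RLE, no filter on low values, edgeR, DESeq2 and a fit of only the 2 groups. Each was also lost with 1 library left out: Ndufs6 without shMEK5 replicate 1, shCTRL replicate 3 or shERK5 replicate 2 or 3 (0.10 to 0.22), and Cox7a2l without shMEK5 replicate 1 or 2 or shERK5 replicate 2 (0.13 to 0.20).

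The other genes of the pathway were read against the same background. Of all tested genes, 32% rose and 31.3% fell in shERK5, and 23.1% rose and 25.6% fell in shMEK5. Of 7 electron carriers and ubiquinone-linked dehydrogenases, counted with the further complex III subunit Cyc1, 6 rose and 0 fell in shERK5 (median 0.43), and 5 rose and 0 fell in shMEK5 (median 0.29). The counts of 0 were the same in edgeR, in DESeq2 and at an unadjusted limma p under 0.05. Cycs, cytochrome c itself, was at 0.60 (SE 0.06) in shERK5 and 0.54 (SE 0.06) in shMEK5. Cyc1, cytochrome c1, was at 0.51 (SE 0.05) and 0.45 (SE 0.06), and Etfdh, which feeds electrons from fatty acid oxidation, at 0.50 (SE 0.05) and 0.32 (SE 0.05).

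The assembly factors of complex IV rose in 14 of 22 tested (63.6%) and fell in 2 (9.09%) in shERK5. In shMEK5 7 rose (31.8%) and 2 fell (9.09%). They included Cox18, which inserts a subunit into the inner membrane, at 0.79 (SE 0.06) in shERK5 and 0.58 (SE 0.06) in shMEK5, and Cox14, at 0.71 (SE 0.06) and 0.54 (SE 0.07). Of 17 tested complex I assembly factors 8 rose (47.1%) and 4 fell (23.5%) in shERK5, and 5 rose (29.4%) and 4 fell (23.5%) in shMEK5. Foxred1 was at 0.58 (SE 0.06) and 0.40 (SE 0.07), and Ndufaf5, a hydroxylase that modifies the Ndufs7 protein, at 0.60 (SE 0.07) and 0.49 (SE 0.08). For complex II 3 of 4 (75%) rose in shERK5 and 2 (50%) in shMEK5, with Sdhaf1 at 0.61 (SE 0.07) and 0.50 (SE 0.08). For complex V 3 of 5 (60%) rose in shERK5, and 1 rose (20%) and 1 fell (20%) in shMEK5.

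For complex III 2 of 6 assembly factors rose (33.3%) and 2 fell (33.3%) in shERK5, and 2 rose (33.3%) and 0 fell in shMEK5. The count of 0 was the same in edgeR, in DESeq2 and at an unadjusted limma p under 0.05. Uqcc2, needed for making cytochrome b, passed the test in opposite directions: -0.21 (SE 0.05) in shERK5, 0.48 (SE 0.05) in shMEK5 and -0.69 (SE 0.05) between them. Mitochondrial ribosomal protein genes rose in 47 of 78 (60.3%) and fell in 5 (6.41%) in shERK5 (median 0.21). In shMEK5 30 rose (38.5%) and 4 fell (5.13%), with a median of 0.13. Protein import genes rose in 13 of 26 (50%) and fell in 2 (7.69%) in shERK5, and rose in 9 (34.6%) and fell in 1 (3.85%) in shMEK5. Timm13, a chaperone of the intermembrane space, was at 0.84 (SE 0.06) and 0.73 (SE 0.07).

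Enzymes of the tricarboxylic acid cycle and pyruvate dehydrogenase rose in 9 of 17 (52.9%) and fell in 2 (11.8%) in shERK5. In shMEK5 4 rose (23.5%) and 1 fell (5.88%). Fh1, fumarate hydratase, fell in shERK5 (-0.50 (SE 0.05)), and Pdhb, a pyruvate dehydrogenase subunit, in shMEK5 (-0.53 (SE 0.07)). Regulators of mitochondrial gene expression showed 5 of 19 higher (26.3%) and 7 lower (36.8%) in shERK5, near the 32% and 31.3% of all tested genes. In shMEK5 4 were higher (21.1%) and 1 lower (5.26%), against 23.1% and 25.6% of all. Gabpa, the DNA-binding part of GABP, fell in shERK5 (-0.37 (SE 0.07)). Its partners went in different directions: Gabpb2 also fell in shERK5 (-0.26 (SE 0.04)), while Gabpb1 rose in shERK5 (0.27 (SE 0.05)) and shMEK5 (0.52 (SE 0.05)). Twnk, the mitochondrial DNA helicase, fell in shERK5 (-0.54 (SE 0.09)).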

How the data were processed

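RNA of 8 4T1 libraries was prepared with ribosomal RNA depletion and a stranded kit, per the labels' protocols. The submitters' processing notes name STAR and mm10 (GRCm38); the sources used here do not give the counting program, its annotation or its use of strand. The authors deposited CPM for 24454 genes. Every value above 0 (100%) came out as a whole number of reads to within 0.01 read, so reads were recovered. A read was worth 0.0186 to 0.0242 CPM, and 0 reads allow up to 3, for counting error only.

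The plan named edgeR as the main test for whole counts. Since the deposited unit is CPM, limma (version 3.58.1, R 4.3.3) was kept as the main test and edgeR was an alternative. The limma fit used trend and robust moderation on log2(CPM + 1), with 3 group means over all 8 libraries. It covered 11623 genes with at least 1 CPM in at least 2 libraries, with Benjamini-Hochberg adjustment. Log2 fold changes of genes with low values are understated by the pseudocount of 1. edgeR (4.0.16) and DESeq2 (1.42.0) on the recovered reads, TMM and RLE factors, other pseudocounts and filters, the replicate block and leaving out each library were alternatives. The limma fit was also tested on simulated data. Libraries within each group differed beyond sampling noise (chi-square per degree of freedom 7.45 to 37.42), so none was taken as a duplicate.

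Symbols, coordinates (1-based) and promoters came from RefSeq tables of GRCm38.p6; transcript lengths and windows of 50 bases came from GENCODE M21. The members and lists were chosen with earlier results of these data known. Named with values were the 20 core genes, except 1 that is not reported here, the isoform groups, and the 5 genes up and 5 down with the greatest change per comparison among those past the test, with a mean of at least 5 CPM and no overlap of groups; Uqcrq, Ndufb9 and the bounds of ranges were named after their values were seen, and from other lists up to 4 genes with the smallest adjusted p. The core set was chosen by name and is wider than the catalytic core described above. It also holds Uqcrc1, Uqcrc2, Cox4i1, Cox5a and Cox5b, while Cyc1 is outside it. Tested members are those that passed the filter, so counts over them leave out 7 members.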

Additional observations from a re-analysis of the deposited data

How the results depend on the processing

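Of 65 called values of named members, 43 kept their call in each of the 19 alternatives that gave a value, 18 lost it when a library was left out and in no other alternative, and 4 in others too; none changed sign. Counts that moved by over 1.5 times did so when 1 library was left out. These counts ranged, over the 8 libraries left out, from 12 to 26 subunit genes higher and 5 to 10 lower in shMEK5 against shCTRL, and from 7 to 20 higher in shERK5 against shMEK5. Over all genes, shERK5 against shMEK5 gave 1592 to 2711 higher and 1320 to 2180 lower, the lowest of each without shMEK5 replicate 1. The complex counts, added after the data were seen, ranged from 8 to 16 complex I accessory genes, 1 to 4 falling complex III genes and 3 to 5 rising complex V genes in shMEK5, and from 1 to 3 falling complex I core genes and 5 to 8 rising complex V genes in shERK5. With fewer libraries the test has less to estimate the spread from.

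Whether replicate numbers pair the libraries was not settled. Deviations from the group means correlated at -0.19 to 0.52 between libraries of the same number and -0.52 to 0.40 between others. These ranges are not independent, since deviations cancel out within a group and those of the 2 shMEK5 libraries mirror each other. The highest were those of shMEK5 with shERK5, 0.46 for number 1 and 0.52 for number 2, but pairs with shCTRL reached -0.19 and the labels give the numbers no shared source. With the number as a block, 40 subunit genes rose and 12 fell in shERK5 against shCTRL, 21 and 10 in shMEK5 against shCTRL, and 19 and 6 in shERK5 against shMEK5. On the recovered reads edgeR called 39 subunit genes higher and 12 lower of 3718 and 3632 genes in shERK5 against shCTRL, 24 and 8 of 2897 and 2730 in shMEK5 against shCTRL, and 14 and 5 of 2264 and 2188 in shERK5 against shMEK5. Scaling moved the median of all genes by less than 0.1 in each comparison.

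The values that changed sign were all uncalled in the fit of all 8 libraries, and the cause was not tested. Not all were near 0: Cox8a was at -0.12 in shMEK5 against shCTRL. In shMEK5 against shCTRL, Ndufa13 was at 0.00662 (TMM factors), 0.00349 (RLE size factors), 0.00515 (edgeR quasi-likelihood on recovered reads) and 0.00226 (DESeq2 on recovered reads), and Cox6b1 at -0.00868 (replicate block). In shERK5 against shMEK5, Uqcrc1 was at -0.00858 (TMM factors), -0.00927 (RLE size factors), -0.00865 (edgeR quasi-likelihood on recovered reads) and -0.00936 (DESeq2 on recovered reads), and Cox4i1 at 0.0203 (replicate block). Leaving out a library turned 17 such values. They ranged in shERK5 against shMEK5 from -0.0800 to 0.00979 for Atp5b, -0.0763 to 0.0320 for Atp5g2, -0.0775 to 0.0690 for Cox4i1, -0.0275 to 0.00843 for Cox5a, -0.00474 to 0.0840 for Ndufa12, -0.0657 to 0.00440 for Ndufs3 and -0.0132 to 0.0406 for Uqcrc1. In shMEK5 against shCTRL they ranged from -0.0783 to 0.0910 for Cox6b1, -0.0137 to 0.0662 for Cox7a2, -0.26 to 0.0297 for Cox8a, -0.0464 to 0.0334 for Ndufa13, -0.0102 to 0.0535 for Ndufs8, -0.12 to 0.0224 for Ndufv3 and -0.16 to 0.0667 for Sdha. In shERK5 against shCTRL they ranged from -0.0318 to 0.00804 for Cox7a2, -0.0158 to 0.0200 for Ndufb6 and -0.0303 to 0.0188 for Uqcrc2. Depth limits Atp5g2 most among the tested members named, with 137 reads over the shMEK5 libraries, and then Cox6a2 with 289 and Ndufab1 with 497.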
